A study of Mus musculus with 14 samples.

Results

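St18, Myt1 and Myt1l, the 3 genes of the mouse myelin transcription factor 1 family, were examined in a ChIP-seq comparison of NKX2.2 binding. Chromatin immunoprecipitation followed by sequencing (ChIP-seq) recovers the DNA bound by a protein, here the homeodomain transcription factor NKX2.2, with an antibody against it. The regions described were chosen by their position, and the 3 genes with earlier results of these data known. They are the regions of the authors' deposited table whose nearest protein-coding gene in the RefSeq gene table of assembly GRCm38.p6 is St18, Myt1 or Myt1l, with a distance of 0 where region and gene overlap. This rule gave 13 of 6758 listed regions: 3 for St18, 3 for Myt1 and 7 for Myt1l. No gene of the family was without a listed region.

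The compared samples were 3 Klf4-KD and 4 scramble NKX2.2 ChIP samples of alphaTC6, a mouse cell line of pancreatic alpha cells whose genotype is labelled WT. Cells received an siRNA against Klf4, which encodes a zinc-finger transcription factor, or a scrambled control siRNA, by reverse transfection with RNAiMax Lipofectamine for 48 h. A further 3 Klf4-KD and 4 scramble samples are inputs, chromatin taken without immunoprecipitation, and are not analysed here. All samples come from 1 cell line, so differences between islets or animals are not covered. The extent of the Klf4 knockdown and the identity of the cells were not checked here, because the table holds binding results and no expression values.

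MYT1, MYT1L and ST18 (also called MYT3) are zinc-finger transcription factors with clusters of CCHC-type fingers that bind short AAGTT-containing sequences. They are known from neurons and from endocrine cells of the pancreas. In neural progenitors the family represses Notch pathway genes through SIN3 and histone deacetylase co-repressors, and in the embryonic pancreas Myt1 acts together with Neurog3 in the formation of endocrine cells. NKX2.2 is itself a regulator of islet cell fate, which makes the family's genes candidate places to look for its binding.

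The values come from the authors' csaw comparison. csaw counts reads in short windows, tests each window between the groups and joins neighbouring windows into a region. A region has a combined p-value over its windows, an adjusted value (false discovery rate, FDR) and the log2 fold change of a representative window. Values for single libraries were not part of the table, so no replicate means, spreads or depths can be given, and whether the 2 groups overlapped at a region cannot be read from it. The p-values, and the FDR computed from them, are the only measures of a difference against the spread between cultures. Whether the fold change is Klf4-KD over scramble or the reverse is not given in the sources used here. A positive value is therefore called listed as higher, with no statement on whether binding was gained or lost after Klf4 knockdown.

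The Myt1l start region is the place where the listed signal meets a promoter, and its sequence is shown for that reason together with that of Myt1. The sequences are RefSeq promoter windows of assembly GRCm38.p6, each covering the 250 bases before a transcription start, on the plus strand and written 5′ to 3′. In the Myt1l start 1 window, chr12:29528134-29528383, all 250 bases lie inside a listed region, and capitals mark the match to AAGTG, the core letters of the NKX2.2 motif. In the Myt1l start 2 window, chr12:29533135-29533384, capitals mark the 60 bases, from position 17 to 76 of the window, that are a listed region. In the Myt1 start 1 window, chr2:181763082-181763331, which no listed region touched, capitals mark the match to AAGTT, the core letters of the MYT1 family's own motif.
Myt1l start 1: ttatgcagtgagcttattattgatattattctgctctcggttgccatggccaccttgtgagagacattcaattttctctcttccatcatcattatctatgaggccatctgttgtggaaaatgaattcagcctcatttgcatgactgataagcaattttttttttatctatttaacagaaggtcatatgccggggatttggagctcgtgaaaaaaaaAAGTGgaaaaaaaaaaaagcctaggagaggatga
Myt1l start 2: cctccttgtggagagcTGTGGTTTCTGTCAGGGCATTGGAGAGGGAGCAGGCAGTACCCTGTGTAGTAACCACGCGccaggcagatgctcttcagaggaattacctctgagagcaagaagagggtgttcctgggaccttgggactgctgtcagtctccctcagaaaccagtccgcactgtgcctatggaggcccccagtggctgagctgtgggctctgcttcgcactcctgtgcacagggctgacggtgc
Myt1 start 1: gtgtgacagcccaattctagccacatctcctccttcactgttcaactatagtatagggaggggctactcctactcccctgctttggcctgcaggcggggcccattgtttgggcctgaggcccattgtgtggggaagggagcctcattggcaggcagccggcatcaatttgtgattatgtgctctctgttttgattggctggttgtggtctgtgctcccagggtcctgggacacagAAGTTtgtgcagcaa

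Motifs of 5 bases were searched on both strands of these windows: AAGTG for NKX2.2, CACCC for KLF factors and AAGTT for the MYT1 family. AAGTG was found 1 time before Myt1l start 1, from 34 bases before the start and inside the listed region. It was not found before Myt1l start 2 or Myt1 start 1. CACCC was found on the minus strand before Myt1l start 2, at positions 122 to 126 of the window and outside the 60 listed bases. Single-window regions are 10 bp wide and region starts lie on a grid of 50 bp. Inside and outside therefore refer to the listed coordinates and not to the bases bound. AAGTT was found before Myt1 start 1, from 15 bases before the start. No matches overlapped. Such short motifs are common: among 32851 promoter windows of the same length, 40.7% held AAGTG, 52.0% held CACCC and 35.3% held AAGTT, so each match is a description of the letters only. The GC content was 36.8% before Myt1l start 1, 59.2% before Myt1l start 2 and 54.8% before Myt1 start 1, beside a median of 52.4% over all windows.

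The 13 regions occupied a different kind of position at each gene. At St18 they lay deep inside the gene, at Myt1 they clustered around the start, and at Myt1l they were spread from far upstream to the middle of the gene. Of the 13, 7 lay within gene bounds (53.8%), close to the 55.8% of all 6758 regions. Regions more than 100 kb from the nearest protein-coding gene were 4 of the 13 (30.8%), all of them upstream of Myt1l, beside 8.80% of all regions. Of the 13 regions, 2 overlapped the 250 bases before a RefSeq start by at least 1 base (15.4%), beside 19.1% of the 6726 regions on assembled chromosomes. No promoter window was at hand for St18, so its regions could not be scored against an St18 start, which limits this comparison. Whether a region is exonic or intronic was not determined, because only gene bounds were at hand.

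**Figure D1:**
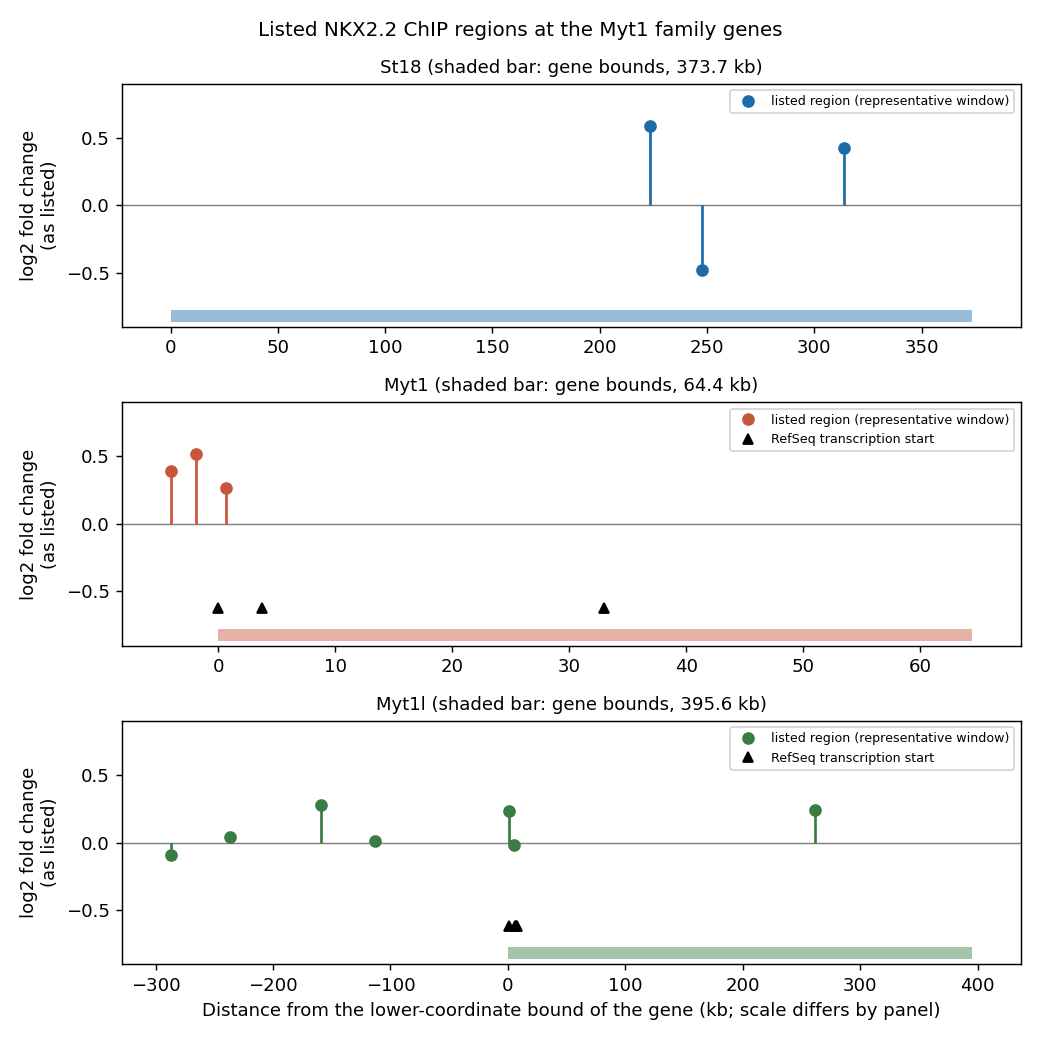
Position and log2 fold change of the 13 listed regions at St18, Myt1 and Myt1l. The horizontal axis is the distance of the region's midpoint from the lower-coordinate bound of the gene in kb, with a different scale in each panel; the vertical axis is the deposited log2 fold change of the representative window; the bar shows the gene bounds and triangles show RefSeq transcription starts, drawn for Myt1 and Myt1l. The St18 regions sit inside the gene with alternating signs, the Myt1 regions at the gene's lower bound with positive signs, and the Myt1l regions lie between -0.09 and 0.28.

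None of the 13 regions differed between Klf4-KD and scramble ChIP samples at a csaw FDR of 0.05. Over the whole table, 92 of 6758 regions, or 1.36%, reached that FDR. Before adjustment, 0 of the 13 had a p-value under 0.05, beside 759 of 6758 regions, or 11.2%. At these shares, a count of 0 in a set of 13 is near the background and is not a result about the family. The smallest p-values in the family's regions were 0.072 at Myt1 and 0.076 at St18, whereas the largest p-value among the 92 changed regions was 0.00068. No window of the 13 regions was counted as up or down in the authors' deposited table. Such a window was present in 759 of 6758 regions, or 11.2%. That number equals the number of regions with an unadjusted p-value under 0.05, so this count may repeat the earlier one.

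The deposited log2 fold change was positive in 10 of the 13 regions (76.9%) and negative in 3, and its median was 0.24. With regions of 2 or more windows only, the median over the remaining 10 was 0.14. Over all listed regions it was positive in 56.8%, with a median of 0.04. The family's values ran from -0.48 to 0.59, well inside the range from -1.92 to 1.62 over the table. Regions near the same gene share a locus, so the 13 values are not independent measurements. The regions were of ordinary size for the table, with a median width of 110 bp and 3 windows, as over all regions, but 3 of the 13 rested on a single window (23.1%), beside 11.9% of all regions.

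**Figure D2:**
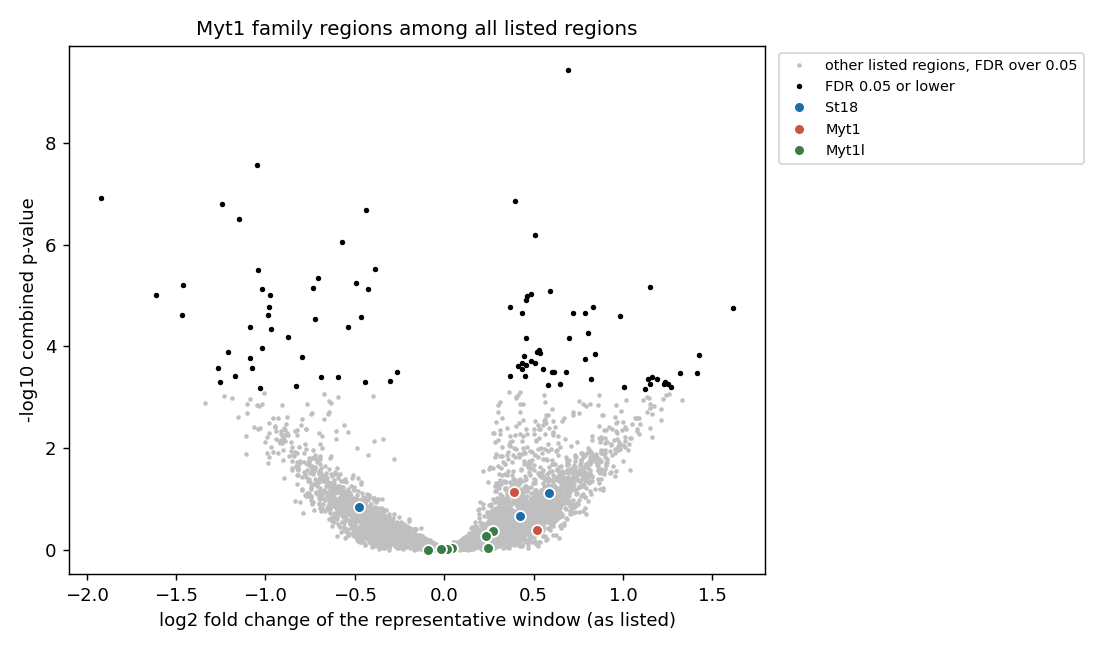
Deposited log2 fold change of the representative window (horizontal axis) against -log10 of the combined csaw p-value (vertical axis) for all 6758 listed regions. Grey and black dots are regions above and at or below an FDR of 0.05, and larger coloured dots are the 13 regions at St18, Myt1 and Myt1l, all of which lie among the grey dots.

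St18 (gene 240690, chr1:6487231-6860940, 373.7 kb) had 3 listed regions, all within the gene. They lay between 224 and 314 kb from the lower-coordinate bound and spanned 90.1 kb. Their signs did not match, as the middle region was listed as lower and the outer 2 as higher. The first, chr1:6710901-6710910, was a single window of 10 bp with a deposited log2 fold change of 0.59 (csaw p-value 0.076, FDR 0.531), the highest value of the family. The region at chr1:6734701-6734760, 23.8 kb further on, held 2 windows and had a deposited log2 fold change of -0.48 (csaw p-value 0.140, FDR 0.655), the lowest value of the family. The last, chr1:6800851-6800960, held 3 windows, with a deposited log2 fold change of 0.42 (csaw p-value 0.209, FDR 0.737). None of these values passed the FDR, so the signs are not shown to exceed the spread between cultures. The difference between neighbouring regions was not tested. The nearest other protein-coding genes, Alkal1 and Pcmtd1, were at least 286 kb from these regions.

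Myt1 (gene 17932, chr2:181763332-181827775, 64.4 kb) had 3 listed regions within 4.81 kb of each other. They flank the gene's first annotated start, with 2 regions before it and 1 after it, while the 250 bases printed above as Myt1 start 1 were not listed. All 3 were listed as higher. The region at chr2:181759151-181759360, 3.97 kb before the gene, held 5 windows and had a deposited log2 fold change of 0.39, with a csaw p-value of 0.072 that was the smallest of the family (FDR 0.524). The next, chr2:181761301-181761510, lay 1.82 kb before the gene and also held 5 windows. Its deposited log2 fold change was larger, at 0.52, but its csaw p-value was also larger, at 0.400 (FDR 0.896). The third, chr2:181763951-181763960, was a single window whose centre lay 0.624 kb past the start, with a deposited log2 fold change of 0.27 (csaw p-value 0.423, FDR 0.909). No region was listed in the remaining part of the gene.

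The 2 upstream Myt1 regions have equal widths and window numbers, yet their fold changes and p-values are ordered oppositely. Values of regions alike in size show how far p-values spread at a given fold change. Among the 71 listed regions with 5 windows and an absolute log2 fold change within 0.05 of 0.52, deposited p-values ran from 0.00019 to 0.682 with a median of 0.126, and 2 of them reached the FDR of 0.05. The p-value of 0.400 at Myt1 lay in the upper part of that range. For the region at 0.39, 130 regions were alike by the same measure, their median p-value was 0.228, and 1 reached the FDR. Over all listed regions 1.36% did.

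Myt1l (gene 17933, chr12:29527590-29923216, 395.6 kb) had 7 listed regions spread over 549 kb, of which 4 had deposited values between -0.09 and 0.05 and 3 had values between 0.23 and 0.28. The median of the 7 was 0.05, and the smallest csaw p-value was 0.413 (FDR 0.903). The direction column listed 5 of the 7 as mixed (71.4%), meaning that windows of both signs contributed to the combined p-value, and none of the regions at St18 and Myt1. Over all listed regions 19.4% were mixed.

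At the start of Myt1l, 2 regions lay on promoter windows. The region at chr12:29528101-29528460 held 8 windows and covered the whole of the Myt1l start 1 window. The region lies, with that promoter window, inside the gene bounds, its centre 0.69 kb past the lower-coordinate bound. Its deposited log2 fold change was 0.23 (csaw p-value 0.519, FDR 0.967). This region also lies within the bounds of Gm20208, a long non-coding RNA gene, so the signal cannot be assigned to Myt1l alone. The region at chr12:29533151-29533210, 4.69 kb further on, is the stretch in capitals before Myt1l start 2, and its 2 windows had a deposited log2 fold change of -0.02 (csaw p-value 0.951). The remaining intragenic region, chr12:29789451-29789510, lay 262 kb into the gene, with a deposited log2 fold change of 0.24 (csaw p-value 0.897).

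Upstream of Myt1l, 4 regions lay in a long stretch without protein-coding genes, between 113 and 287 kb from the gene. The farthest, chr12:29240151-29240660, was also the widest of the family, with 8 windows over 510 bp. Its deposited log2 fold change was -0.09 (csaw p-value 0.993), and it lies within the bounds of the long non-coding RNA gene Gm31569. The region at chr12:29291101-29291210 had a deposited log2 fold change of 0.05 (csaw p-value 0.885). The single window at chr12:29368501-29368510 gave the gene's highest value, a deposited log2 fold change of 0.28 (csaw p-value 0.413). The region at chr12:29414051-29414210 stood at 0.02 in the deposited table (csaw p-value 0.942). The next protein-coding gene was at least 373 kb from each of these 4 regions, namely Eipr1 for the farthest 3 and Pxdn for the fourth. Their link to Myt1l is one of position only. With genes of every type in the assignment, all 4 had an entry other than a protein-coding gene closer than Myt1l.

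**Figure D3:**
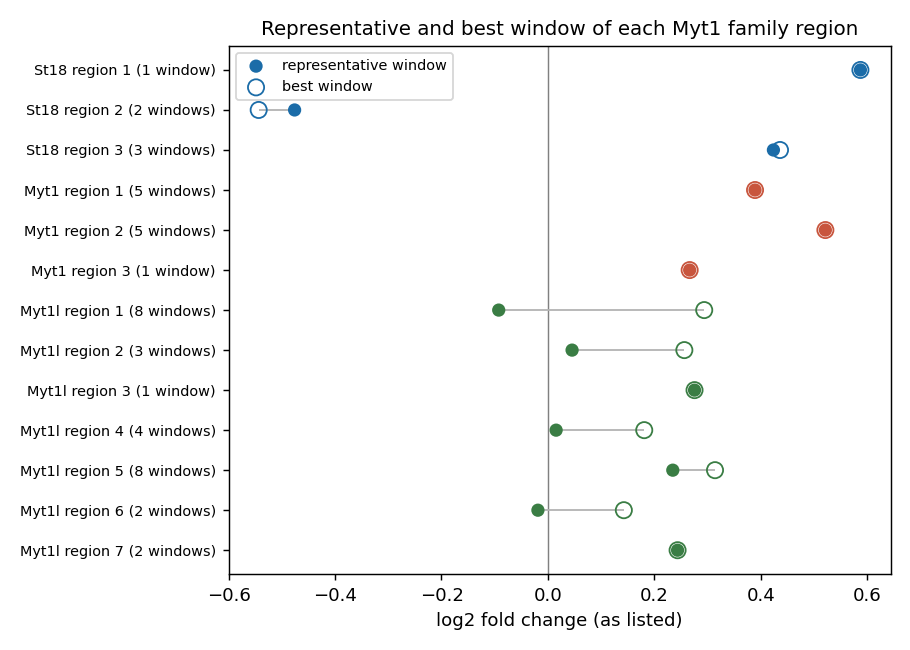
Deposited log2 fold change of the representative window (filled) and of the best window (open) in each of the 13 regions, named by gene and numbered by position, with the number of windows in brackets. The symbols coincide in 6 regions of St18, Myt1 and Myt1l, and in 5 Myt1l regions the best window lies to the right of the representative one, crossing 0 in 2 of them.

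The windows within a region did not always give the same value. csaw also reports the best window, the one with the smallest p-value. At Myt1l, all 7 best windows had positive deposited log2 fold changes, between 0.14 and 0.31, although 2 representative windows were negative. The smallest csaw best-window p-value among these 7 was 0.413, so their signs are not shown to exceed the spread between cultures. In the region farthest upstream the representative window stood at -0.09 and the best window at 0.29, and in the region before Myt1l start 2 they stood at -0.02 and 0.14. At St18 the middle region was negative by both measures, at -0.48 and -0.54. Over the family, 12 of 13 best windows were positive, beside 57.5% over all regions. The 7 at Myt1l are among these 12, share a locus and are not independent. None of the 13 passed an FDR of 0.05 by its best window, where the lowest deposited value was 0.570.

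The number of regions nearest to each gene was 7 for Myt1l and 3 for St18 and Myt1. The count for Myt1l rests on the 4 regions over 100 kb upstream; within 100 kb, or with genes of every type in the assignment, it had 3, as did the other genes. Of the 4542 protein-coding genes with at least 1 listed region, 35 had 7 or more (0.771%), and 493 had 3 or more (10.9%). Gene length bears on such counts. Among 128 protein-coding genes within 10% of the length of Myt1l, 62 had a listed region inside and 19 had 3 or more, the number inside Myt1l. Among 134 genes of a length like that of St18, 62 had a region inside and 21 had at least the 3 found in St18. Among 774 genes of a length like that of Myt1, 143 had at least 1 region inside, as Myt1 did. Per 100 kb of gene, the numbers were 0.803 at St18, 1.55 at Myt1 and 0.758 at Myt1l, each resting on 3 regions or fewer.

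**Figure D4:**
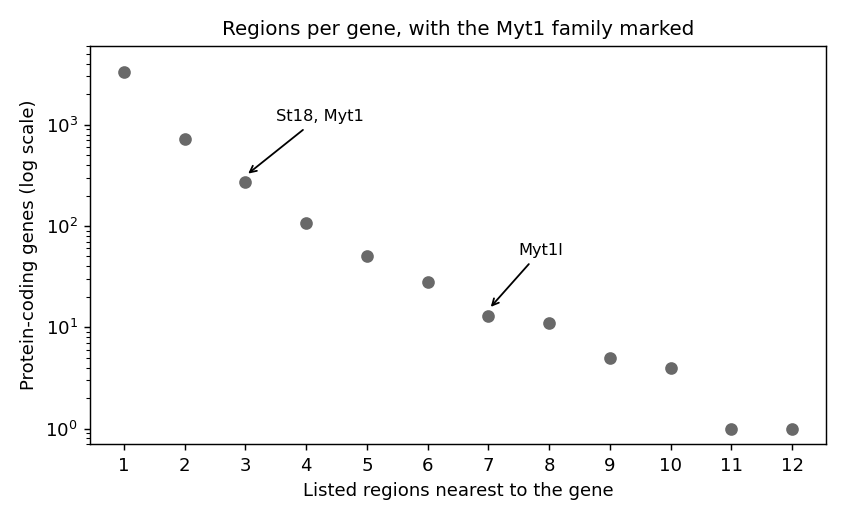
Number of protein-coding genes (vertical axis, log scale) by the number of listed regions nearest to them (horizontal axis). St18 and Myt1, with 3 regions each, are among 272 genes with that number, and Myt1l, with 7, is among 13.

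The genes most like Myt1l by number of regions and then by median fold change were Rnf144a, Cdh13 and Noct, each with 7 regions and a median deposited log2 fold change of 0.04, 0.04 and 0.03. Position was not part of this measure. Of 7 regions each, 0 lay within Rnf144a, 5 within Cdh13 and 0 within Noct, beside 3 within Myt1l. Rnf144a encodes a ubiquitin ligase, Cdh13 encodes T-cadherin and Noct encodes nocturnin. None of their regions reached a csaw FDR of 0.05 either. Their values varied more widely than those of Myt1l, from -0.33 to 0.74 at Rnf144a, from -0.50 to 0.69 at Cdh13 and from -0.15 to 0.44 at Noct in the deposited table. This likeness rests on 1 comparison and carries no statement on shared control.

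Genes that act with or upstream of the family, or that it is known to repress, were counted in 3 lists. Of 8 genes of the co-repressor partners, which include Sin3a, Hdac1 and Kdm1a, only Sin3b had a listed region, a single window within the gene at a deposited log2 fold change of -0.03 (csaw p-value 0.914). Of 20 Notch pathway genes, 6 had 16 listed regions, namely Notch1, Notch2, Rbpj, Maml3, Hes1 and Heyl. Of 13 proneural and endocrine factors, 5 had 14 listed regions, namely Nkx2-2, Pax6, Pdx1, Foxa2 and Neurod2, while Neurog3 had none. No region of any list reached a csaw FDR of 0.05 in either direction, which at 1.36% over all regions is near the background and is not a result about the lists. Before adjustment, p-values under 0.05 were found in 0 of 1 co-repressor region, 4 of 16 Notch pathway regions and 1 of 14 regions of proneural and endocrine factors, beside 11.2% of all regions. Median deposited log2 fold changes were 0.12 for the Notch pathway and 0.01 for the proneural and endocrine factors, beside 0.04 over all regions.

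The lowest p-value among the regions of these lists was found near Hes1, a Notch effector that encodes a transcriptional repressor of the basic helix-loop-helix class. At chr16:30064201-30064310, 1.05 kb from Hes1, the deposited log2 fold change was -0.95 (csaw p-value 0.0036, FDR 0.128). Within Notch1, which encodes a Notch receptor, chr2:26471801-26471910 stood at 0.90 (csaw p-value 0.011, FDR 0.219) in the deposited table. Within Maml3, which encodes a co-activator of Notch signalling, chr3:51810801-51810860 and chr3:51916201-51916410 stood at 0.86 and 0.57 in the deposited table (csaw FDR 0.335 and 0.363). Among the endocrine factors, a region 67.8 kb from Foxa2, chr2:147974851-147975060, had a deposited log2 fold change of -0.61 (csaw p-value 0.032, FDR 0.365). These 5 regions were picked by an unadjusted p-value under 0.05, which favours large values, so their sizes are not compared with the family's own. None of them passed the FDR.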

How the data were processed

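By their titles, the 14 samples are NKX2.2 ChIP (3 Klf4-KD, 4 scramble) and input (3 Klf4-KD, 4 scramble). The 1 deposited table is the authors' csaw comparison, per the series' design text. The submitters' processing notes name the build mm10 and the tools FastQC, Bowtie2 and MACS2; the window filter, the normalization, the covariates and the use of inputs are not given in the sources used here. The p-values and FDR values were deposited by the authors; the FDR equals a Benjamini-Hochberg adjustment over all 6758 regions. Each log2 fold change is the authors' value for 1 window. Depth per sample is unknown, and no count test was possible, although the design allowed for one.

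Regions were assigned to the nearest of 21900 RefSeq protein-coding genes of GRCm38.p6, and ties went to the closer gene end. A promoter was matched by symbol for Myt1 (3 windows) and Myt1l (5 windows). Every region of the family is named; of each list, the region with the smallest p-value and those at an unadjusted p under 0.05. The members and lists were chosen with earlier results of these data known. Assignment and adjustment were tested on simulated data. Alternatives covered the FDR threshold, the best window, region filters and the assignment. Computation used matplotlib 3.10.9, scipy 1.17.1, pandas 2.3.3 and numpy 2.4.6 under Python 3.11.15.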

Additional observations from a re-analysis of the deposited data

How the results depend on the processing

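The count of 0 family regions at an FDR of 0.05 stayed 0 at FDR 0.01 and 0.1, with best-window p-values, with the FDR recomputed over regions of 2 or more windows, without regions that are wide, on contigs or at chromosome starts, and under 3 other assignments; with 1.36% of all regions called, these counts of 0 carry little information. The 3 lists also stayed at 0 at FDR 0.1 and by best window, alternatives chosen after the data were seen. The number of regions, 13, was 9 within 10 kb, within 100 kb and with genes of any type, each of which drops the 4 regions far upstream of Myt1l, and 10 with 2 or more windows. The median log2 fold change of 0.24 was 0.27 in each of those 3 assignments, 0.28 with best windows and 0.14 with 2 or more windows. Over all listed regions the median was 0.04, and it was 0.15 with best windows. Of 36 single-region comparisons, 34 kept sign and side of the threshold. Recomputing the FDR leaves the fold change as it is, so only the best-window comparisons could change sign. Among those, a change was possible only where the best window differs from the representative one. With the best window 2 Myt1l regions reversed, to 0.29 and 0.14, and the cause was not tested. No paired analysis was possible because samples are not among the table's columns. Leaving out replicates could not be run for the same reason. Assignment by transcription start was not run, because no start was at hand for St18. Starts were at hand for Myt1 and Myt1l, while the gene table gives no strand. With the depth unknown, how small a change at these genes would have been seen is not known.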

Other observations

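The remaining promoter windows of the family, 2 for Myt1 and 3 for Myt1l, were not touched by a listed region. The closest of them, before the third start of Myt1l, began transcription 1.42 kb from the centre of a listed region, and the farthest, before the third start of Myt1, 32.4 kb. AAGTT was found in 4 of these 5 windows, AAGTG in 1 and CACCC in 1. In the window before the fifth start of Myt1l both AAGTG and AAGTT were found, the latter 2 times. These are matches of letters in 250 bases, with the shares over all promoters given above.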
